A study of Homo sapiens with 11 samples.

Results

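Translation factors are the proteins that load the ribosome onto messenger RNA and carry it along the coding sequence. Their messenger RNAs were followed in HCT116, an established human colorectal carcinoma cell line that the labels call epithelial and ras mutant. The group was defined by gene names alone, but with earlier results of these data known. It held every protein-coding gene of the deposited count table whose symbol begins with EIF1 to EIF6, EEF1 or EEF2, without the kinases and methyltransferases that share such a prefix, of which 11 were set aside. This gave 60 genes among 61464 rows. Of these, 57 had enough counts to be tested, among 17963 genes tested in all. The remaining 3 were EEF1G, with 0 counts in all 11 libraries, the read-through gene EEF1E1-BLOC1S5, also with 0 counts, and EIF4EBP3, with 13 counts over all libraries. EIF1AY, a Y-linked copy of EIF1AX, was tested and is part of the counts of members called, but its values are neither given nor plotted.

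Initiation begins when the factors eIF1, eIF1A and eIF3 bind the small ribosomal subunit and eIF2 brings the initiator methionyl-tRNA. The cap-binding complex eIF4F then recruits the messenger RNA, the subunit scans for a start codon, and eIF5 and eIF5B oversee the joining of the large subunit. In elongation eEF1A delivers each aminoacyl-tRNA and eEF2 moves the ribosome on by a codon. The main switches on this machinery are the phosphorylation of eIF2, which blocks its recycling by eIF2B, and mTORC1, the nutrient-sensing kinase that holds the eIF4E-binding inhibitors inactive.

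Cells were treated for 48 h with GTEA7 (4 libraries), a Ganoderma triterpenoid extract, with GTEA1 (4 libraries), another such extract, or with the solvent DMSO as control (3 libraries). Ganoderma is a genus of bracket fungi. A single cell line was used. All libraries were labelled batch 1, no dose was given, and the labels do not say whether replicates were separate cultures. The p-values below therefore measure only the spread between these libraries, which may be technical. The series title names stemness and migration of colon cancer cells as its question.

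Total counts per library were 14955685 to 19304211 with GTEA7, 13742326 to 16433111 with GTEA1 and 13866350 to 17431515 with DMSO. Replicates of every group differed from each other by more than sampling noise. The epithelial markers EPCAM, CDH1, KRT8, KRT18 and KRT19 were well expressed, with the lowest of them, CDH1, at 144 CPM with GTEA7, 154 CPM with GTEA1 and 154 CPM with DMSO (scaled by library totals). Of the leukocyte and endothelial markers CD3E had 0 counts, and the highest, PECAM1, was at 0.333 CPM with GTEA7, 0.373 CPM with GTEA1 and 0.485 CPM with DMSO. CDX2, of the same epithelial list, was lower, at 11.7 CPM with GTEA7, 7.4 CPM with GTEA1 and 12.2 CPM with DMSO. The intestinal marker VIL1 was nearly absent, with 28 counts in all. The fibroblast collagen gene COL1A1 was present at 40.2 CPM with GTEA7, 38.5 CPM with GTEA1 and 54.5 CPM with DMSO. The fibroblast gene COL3A1 was at 1.75 CPM with GTEA7, 0.688 CPM with GTEA1 and 2.64 CPM with DMSO, and DCN had 4 counts in all. Values are given as CPM, the usual share of a library's counts after TMM scaling, with SD over libraries. Changes are log2 fold changes ± standard error from edgeR, and a gene rose or fell where its quasi-likelihood test gave a Benjamini-Hochberg adjusted p under 0.05 over all 17963 genes. Since CPM are shares of a library, fewer cells carrying a transcript and less of it per cell cannot be told apart.

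Per length of exon, the elongation factors EEF1A1, EEF2 and EEF1B2 were the most abundant members as counted. The length is that of all annotated exons of a gene joined, not of the transcript in use. Levels of members whose exons largely overlap other genes, such as EEF1G, EIF4A1 and EEF1D, are uncertain. In DMSO cells EEF1A1 stood at 1949 ± 44.6 CPM per kilobase, EEF2 at 644 ± 19.3 and EEF1B2 at 222 ± 7.17 (SD, n = 3). Behind them came EIF4B at 153 ± 1.76, EIF3A at 151 ± 1.64, EIF2S3 at 114 ± 1.34 and EIF4G2 at 111 ± 1.84 CPM per kilobase. EIF4B and EIF3A did not differ beyond their spread, while EIF2S3 stood slightly above EIF4G2. The members together took 2.69% ± 0.0371 of all counts with GTEA7, 3.65% ± 0.0413 with GTEA1 and 2.62% ± 0.049 with DMSO. Most of the excess in GTEA1 cells was EEF1A1 alone, which held 1.27% with GTEA7, 2.22% with GTEA1 and 1.22% with DMSO. Without EEF1A1 the share was 1.42% with GTEA7, 1.43% with GTEA1 and 1.39% with DMSO.

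GTEA1 changed the factors in both directions, by large amounts in a few of them. Against DMSO, 26 of the 57 tested members rose, 13 fell and 18 did not pass. These 39 calls were 68.4% of the members, where 71.8% of all tested genes passed in this comparison, so the share was close to the background. Scaling by library totals only, which put the median of all genes at -0.17, gave 22 rises and 24 falls. Rises made up 26 of 57, against 35.6% of all genes, and falls 13 of 57, against 36.2%. The median member change was 0.07 on the log2 scale, against -0.0078 over all genes, and members ranged from -2.09 to 1.53. At least a 2-fold change was reached by 5 risers and 1 faller, where 21% of all genes reached that size in either direction. The 5 were EIF1, EIF2S2, EIF4EBP1, EIF1B and EEF1A1, and the faller was EIF4E1B.

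GTEA7 moved the factors far less, and nearly all one way. Against DMSO 25 members rose, 2 fell and 30 did not pass, which is 47.4% of the members against 22.5% of all genes. The background was 12% for rises and 10.4% for falls. Members and all genes were not matched for expression level, and the part this plays in the shares was not tested. All GTEA7 changes were small, from -0.15 to 0.28 among the tested members with a median of 0.10, against -0.0087 over all genes. Scaled by library totals only, which put the median of all genes at -0.06, 15 members rose and 2 fell, and EIF1B, EIF3D, EIF3H and EIF4G2 were among those that no longer passed. No member reached 2-fold, where 0.579% of all genes did. The comparisons of GTEA7 and GTEA1 with DMSO share the 3 DMSO libraries.

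**Figure D1:**
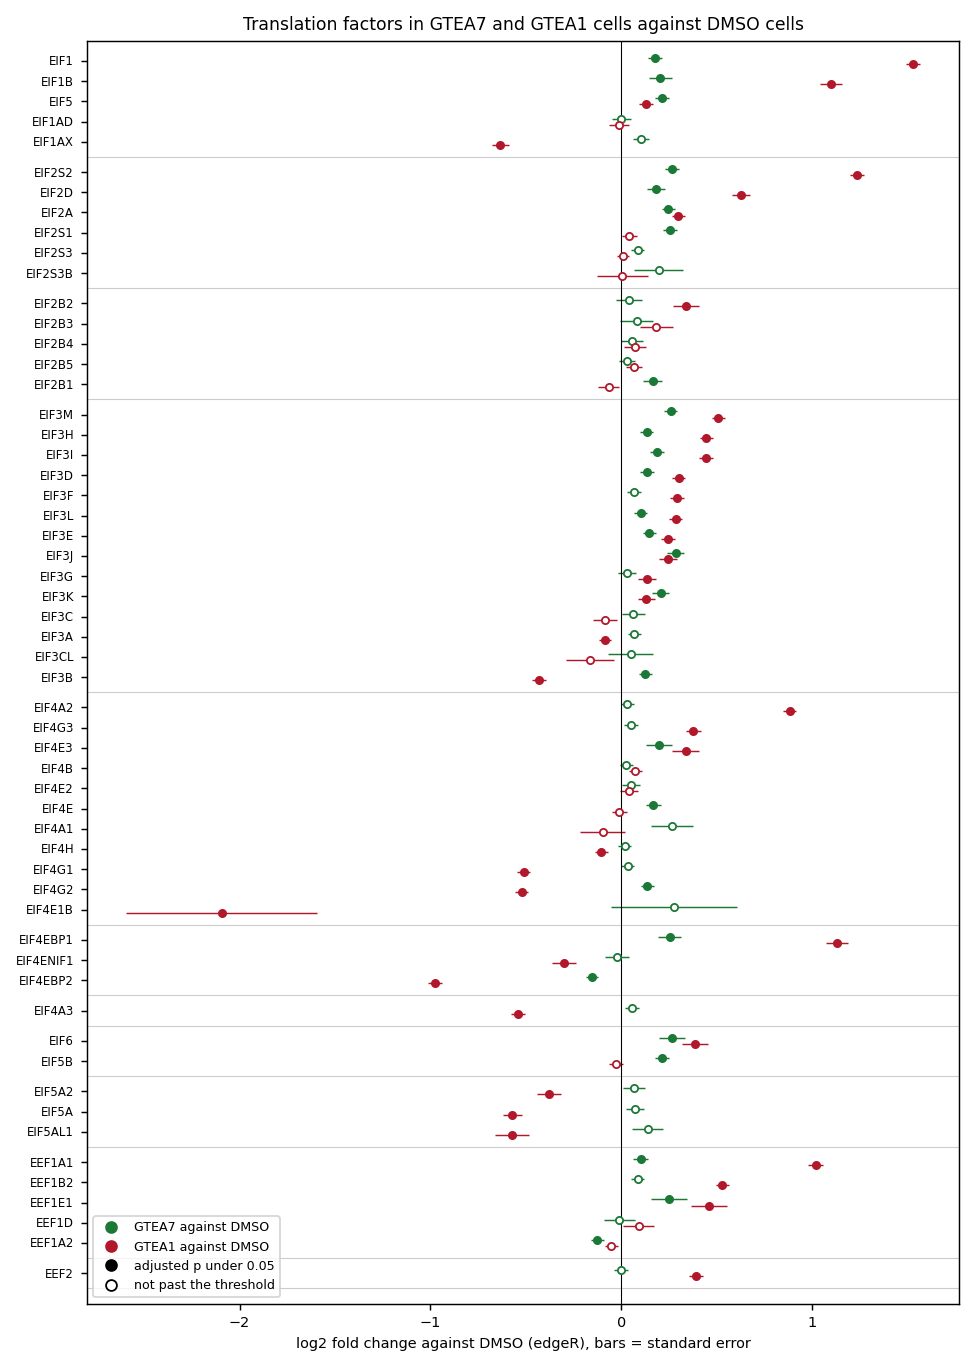
log2 fold change of 56 tested members in GTEA7 (green) and GTEA1 (red) cells against DMSO cells, grouped by role, with bars for the standard error; filled points have an adjusted p under 0.05. The GTEA1 changes spread from -2.09 to 1.53, while the GTEA7 changes lie between -0.15 and 0.28 and mostly right of 0.

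The factors that guide start codon scanning held the largest rise and 1 of the larger falls. EIF1, which keeps the scanning subunit open until a start codon is found, had 284, 285, 282 and 277 CPM in the GTEA7 libraries, 688, 703, 748 and 738 CPM in the GTEA1 libraries and 246, 249 and 253 CPM in the DMSO libraries. Every GTEA1 library lay far above all others, and every GTEA7 library lay slightly above every DMSO library. The change with GTEA1 over DMSO was 1.53 ± 0.036 (adjusted p = 6.52e-38), a 2.88-fold rise. EIF1B, its close paralog, had 26.8, 27.3, 25.5 and 26.0 CPM in the GTEA7 libraries, 45.4, 49.6, 50.6 and 50.6 CPM in the GTEA1 libraries and 23.0, 22.8 and 23.0 CPM in the DMSO libraries. It rose by 1.1 ± 0.057 (adjusted p = 3.37e-23) with GTEA1, with the same order of groups. EIF1AX, the eIF1A partner of eIF1 in scanning, went the other way with 164, 168, 170.3 and 159.6 CPM in the GTEA7 libraries, 108, 95.6, 93.0 and 102 CPM in the GTEA1 libraries and 164, 155 and 143 CPM in the DMSO libraries. The GTEA1 libraries did not overlap with either other group, and the change over DMSO was -0.63 ± 0.044 (adjusted p = 1.04e-16). EIF5, the protein that makes eIF2 hydrolyse its GTP at the start codon, had 319, 321, 338 and 319.6 CPM in the GTEA7 libraries, 317, 302, 285 and 322 CPM in the GTEA1 libraries and 279, 276 and 286 CPM in the DMSO libraries. Its GTEA1 and DMSO libraries overlapped and its rise with GTEA1 was small, 0.13 ± 0.037 (adjusted p = 0.00184), and turned to -0.03 when libraries were scaled by their totals only. Of the 6 tested genes of this group 3 rose and 1 fell with GTEA1, 66.7% called against 71.8% of all genes. With totals-only scaling 2 moved each way. EIF1AD did not pass, with 41.8 ± 0.51 CPM with GTEA7, 41.6 ± 2.76 CPM with GTEA1 and 41.8 ± 1.30 CPM with DMSO.

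**Figure D2:**
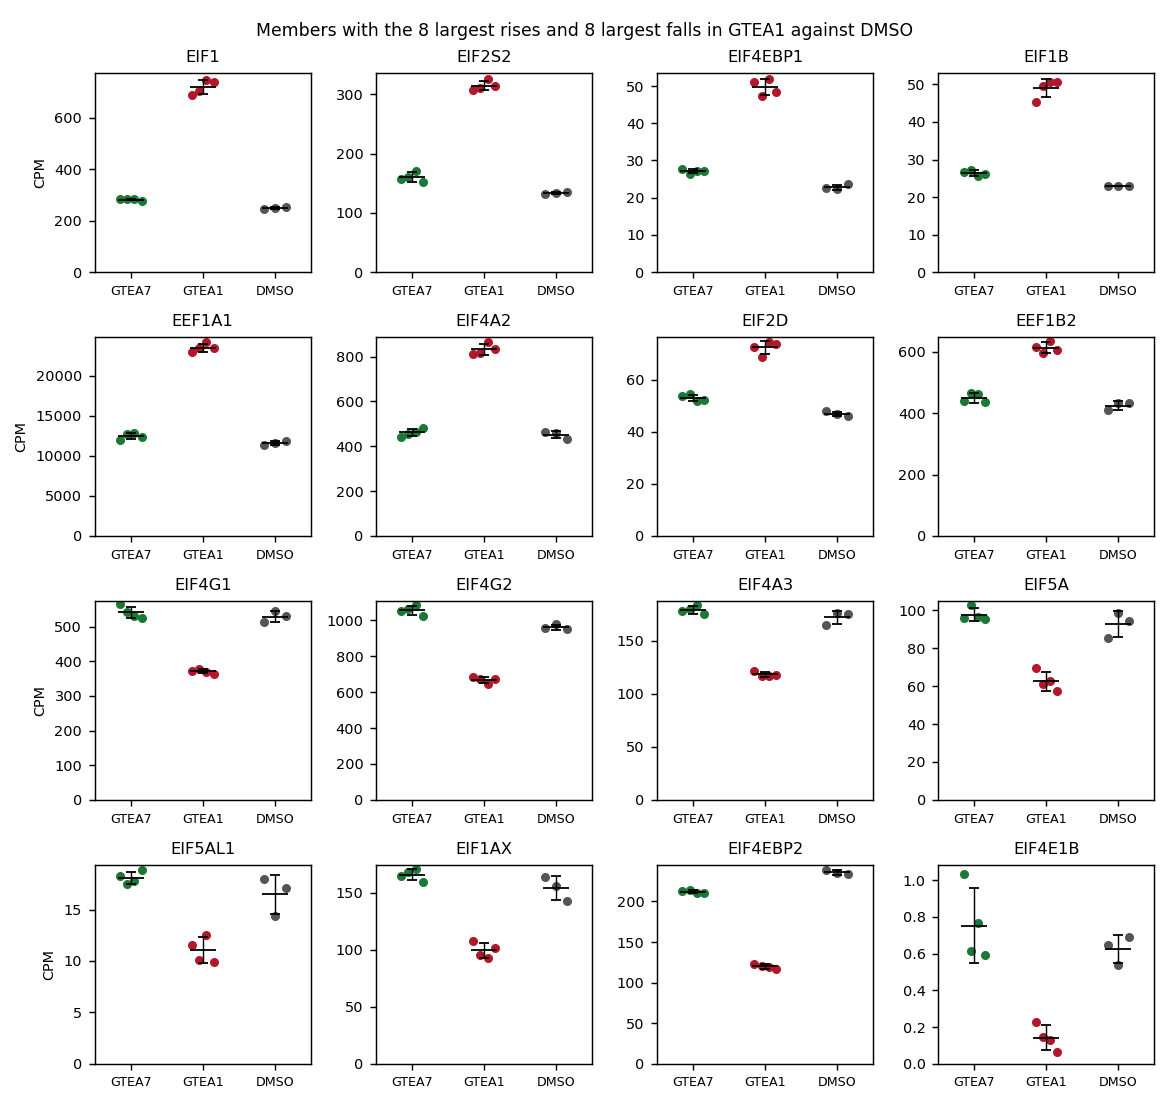
CPM of each library for the 8 members with the largest rises and the 8 with the largest falls in GTEA1 against DMSO; bars give the group mean and SD, and every y axis starts at 0. In all 16 panels the GTEA1 libraries lie wholly above or below the DMSO libraries.

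Of the eIF2 complex, which carries the initiator tRNA, only the beta subunit passed with GTEA1. EIF2S2, encoding that subunit, had 157, 161, 171 and 153 CPM in the GTEA7 libraries, 307, 311, 326 and 314 CPM in the GTEA1 libraries and 132, 133 and 135 CPM in the DMSO libraries. The 3 groups did not overlap, and its rise with GTEA1 was 1.24 ± 0.038 (adjusted p = 7.38e-33), a 2.35-fold change. EIF2S1 encodes the alpha subunit, whose phosphorylation is the switch of the integrated stress response, and it had 189, 195, 195 and 181 CPM in the GTEA7 libraries, 172, 161, 162 and 160.4 CPM in the GTEA1 libraries and 156, 163 and 158 CPM in the DMSO libraries. With GTEA1 it did not pass (0.042 ± 0.037, 95% interval -0.031 to 0.12, adjusted p = 0.309). The gamma subunit gene EIF2S3 did not pass either, at 0.0099 ± 0.033 (adjusted p = 0.796), and its near-identical copy EIF2S3B may share reads with it. Scaled by totals only they were at -0.12 and -0.15, and passed as lower (adjusted p = 0.0059 and 7.41e-05). EIF2D, which places tRNA on the ribosome without eIF2 and frees spent small subunits, had 53.9, 54.5, 52.1 and 52.4 CPM in the GTEA7 libraries, 72.7, 68.9, 74.5 and 73.9 CPM in the GTEA1 libraries and 47.9, 46.9 and 46.2 CPM in the DMSO libraries. It rose by 0.63 ± 0.046 (adjusted p = 2.31e-17), with no overlap between any of the groups. EIF2A, another tRNA-binding initiation factor, averaged 166 ± 2.00 CPM with GTEA7, 172 ± 0.838 CPM with GTEA1 and 139.7 ± 1.71 CPM with DMSO, and its rise with GTEA1 was 0.30 ± 0.035 (adjusted p = 1.33e-10). Across the 6 tested genes of this group 3 rose, namely EIF2S2, EIF2D and EIF2A, and none fell, against 2 with totals-only scaling. The 3 rises were 50% of the group, against 71.8% of all genes called and 35.6% risen.

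The exchange factor eIF2B, which recharges eIF2 with GTP, had a single subunit that passed with GTEA1, 20% against 71.8% of all genes. This was EIF2B2 among 5 subunits, which rose by 0.34 ± 0.068 (adjusted p = 2e-05), with 20.6 ± 1.84 CPM with GTEA7, 25.3 ± 0.603 CPM with GTEA1 and 20.1 ± 0.501 CPM with DMSO. Of its exonic bases 23.6% lie in other annotated genes of either strand, and the strand setting of the counting is not given in the sources used here. EIF2B1 was at -0.067 ± 0.053 (adjusted p = 0.255), but at -0.23 and lower when scaled by totals only (adjusted p = 0.000182). EIF2B5, the catalytic subunit, was at 0.067 ± 0.043 (adjusted p = 0.161), or -0.092 scaled by totals only. Without DMSO replicate 1 or without GTEA1 replicate 1, 2 subunits passed instead of 1.

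The eIF3 complex, the scaffold that holds the other factors on the small subunit, mostly rose with GTEA1, each subunit by a modest amount. Of 14 tested genes 10 rose, 2 fell and 2 did not pass. That is 85.7% called, against 71.8% of all genes called, 35.6% risen and 36.2% fallen. The largest rise was EIF3M, with 179, 193, 192 and 191 CPM in the GTEA7 libraries, 229, 219.6, 223 and 226 CPM in the GTEA1 libraries and 155, 160.1 and 158 CPM in the DMSO libraries. Its groups did not overlap, and its change with GTEA1 was 0.51 ± 0.036 (adjusted p = 6.09e-18). EIF3H and EIF3I followed at 0.45 ± 0.034 (adjusted p = 9.63e-17) and 0.44 ± 0.036 (adjusted p = 7.23e-16). EIF3D, a subunit able to bind the cap of some messenger RNAs, rose by 0.30 ± 0.035 (adjusted p = 8.61e-11). EIF3F rose by 0.29 ± 0.036, EIF3L by 0.28 ± 0.035, EIF3E by 0.24 ± 0.035 and EIF3J by 0.24 ± 0.045, of which EIF3J did not pass when scaled by totals only (adjusted p = 0.0865). The rises of EIF3G (0.13 ± 0.046, adjusted p = 0.00884) and EIF3K (0.13 ± 0.046, adjusted p = 0.0101) were smaller. Both lost their calls without DMSO replicate 1 (adjusted p = 0.193 and 0.117), and EIF3K also without GTEA1 replicate 3 (adjusted p = 0.0595). Scaled by totals only they were at -0.026 and -0.028, and the subunits then counted 7 higher and 4 lower. The fallers were EIF3B and EIF3A, which form the core of the complex. EIF3B averaged 375 ± 9.52 CPM with GTEA7, 255 ± 5.69 CPM with GTEA1 and 344 ± 15.9 CPM with DMSO, a change of -0.43 ± 0.035 (adjusted p = 1.39e-15) with GTEA1. EIF3A changed by -0.086 ± 0.033 (adjusted p = 0.0201), and this call was lost, leaving 1 fall, without DMSO replicate 3 (adjusted p = 0.0755) and without GTEA1 replicate 1 (adjusted p = 0.069). EIF3C, also of the core, was at -0.085 ± 0.064 and did not pass (adjusted p = 0.23). Scaled by totals only it was at -0.24 and passed as lower (adjusted p = 0.000735), and reads may be shared with its near-identical copy EIF3CL. For EIF3L, 51.8% of exonic bases lie in other annotated genes.

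In the cap-binding complex eIF4F the scaffold genes and their alternates parted with GTEA1. EIF4G1 encodes the main scaffold that joins the cap-binding protein to the helicase and to eIF3, and it had 563, 543, 531 and 525 CPM in the GTEA7 libraries, 372, 378, 369.5 and 364 CPM in the GTEA1 libraries and 512, 544 and 529.7 CPM in the DMSO libraries. All GTEA1 libraries were below all others, and the change over DMSO was -0.51 ± 0.034 (adjusted p = 6.75e-19), a 1.43-fold fall. EIF4G2, a scaffold that lacks the part binding eIF4E and serves cap-independent initiation, had 1051, 1062, 1086 and 1026 CPM in the GTEA7 libraries, 685, 675, 646 and 674 CPM in the GTEA1 libraries and 955, 979 and 949 CPM in the DMSO libraries. It fell by a like amount, 0.52 ± 0.034 (adjusted p = 1.95e-19). The third scaffold, EIF4G3, averaged 142 ± 4.10 CPM with GTEA7, 179 ± 5.79 CPM with GTEA1 and 138 ± 2.09 CPM with DMSO and rose by 0.38 ± 0.037 (adjusted p = 5.44e-13).

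Of the 11 tested genes of eIF4F and its cofactors 3 rose and 4 fell with GTEA1, or 3 and 7 when scaled by totals only. With TMM scaling 63.6% were called, against 71.8% of all genes. The cap-binding protein itself did not pass with TMM scaling, but scaled by totals only it was at -0.17 and passed as lower (adjusted p = 0.000227). EIF4E had 104, 108, 112 and 104 CPM in the GTEA7 libraries, 97.2, 92.0, 95.1 and 94.9 CPM in the GTEA1 libraries and 94.0, 95.8 and 96.6 CPM in the DMSO libraries. The GTEA1 and DMSO libraries overlapped, and the change was -0.01 ± 0.04 with a 95% interval of -0.088 to 0.068 (adjusted p = 0.826). EIF4E3, a relative that binds the cap in another manner, rose by 0.34 ± 0.07 (adjusted p = 3.4e-05). EIF4E1B, a germline relative of EIF4E, was barely present, with 1.03, 0.613, 0.765 and 0.59 CPM in the GTEA7 libraries, 0.23, 0.147, 0.131 and 0.0641 CPM in the GTEA1 libraries and 0.645, 0.539 and 0.689 CPM in the DMSO libraries. The 4 GTEA1 libraries held 3, 2, 2 and 1 counts of it, so its fall of 2.09 ± 0.50 (adjusted p = 0.000222) rests on very few reads.

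Of the helicase genes, EIF4A2 had 444, 455, 465 and 484 CPM in the GTEA7 libraries, 811, 817, 866 and 836 CPM in the GTEA1 libraries and 464, 457 and 434 CPM in the DMSO libraries. It rose by 0.88 ± 0.036 (adjusted p = 1.85e-27) with GTEA1, with every GTEA1 library above every other library. In GENCODE v29, 17.9% of its exonic bases lie in other genes, among them small nucleolar RNAs. EIF4A1, the usual eIF4A of dividing cells, had only 9.89, 9.35, 7.30 and 7.54 CPM in the GTEA7 libraries, 6.74, 6.01, 7.45 and 6.35 CPM in the GTEA1 libraries and 7.27, 7.22 and 6.82 CPM in the DMSO libraries. That is 1.34 ± 0.0464 CPM per kilobase in DMSO cells, against 73.7 ± 2.63 for EIF4A2. Of the exonic bases of EIF4A1 48.6% lie in other annotated genes, and its pseudogenes held 52.4% of the counts of gene and copies together with GTEA7, 50.3% with GTEA1 and 51.6% with DMSO. The part this overlap plays in its low level was not tested, and its level is uncertain. EIF4A1 did not pass with GTEA1 (-0.098 ± 0.12, adjusted p = 0.465). The helicase cofactor EIF4H fell slightly, by 0.10 ± 0.034 (adjusted p = 0.00547), a call lost without DMSO replicate 2 (adjusted p = 0.0573). The other cofactor, EIF4B, lay at the threshold with 0.073 ± 0.034 (adjusted p = 0.0502), and passed as higher without GTEA1 replicate 1 (adjusted p = 0.0191) or replicate 4 (adjusted p = 0.0307) but as lower when scaled by totals only (-0.085, adjusted p = 0.0196). EIF4A3 is a helicase of the exon junction complex rather than of initiation, and had 178, 179.8, 184 and 175 CPM in the GTEA7 libraries, 122, 116, 117 and 118 CPM in the GTEA1 libraries and 165, 177 and 175 CPM in the DMSO libraries. Its GTEA1 libraries lay below all others, a change of -0.54 ± 0.037 (adjusted p = 1.47e-18) over DMSO.

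The inhibitors that bind eIF4E moved in opposite directions. EIF4EBP1 encodes the best-known of these mTORC1-controlled inhibitors, and had 27.7, 26.5, 27.1 and 27.2 CPM in the GTEA7 libraries, 51.1, 47.3, 51.9 and 48.5 CPM in the GTEA1 libraries and 22.5, 22.3 and 23.6 CPM in the DMSO libraries. All GTEA7 libraries exceeded all DMSO libraries, and all GTEA1 libraries exceeded both. With GTEA1 the rise was 1.13 ± 0.056 (adjusted p = 7.09e-24), a 2.19-fold change. EIF4EBP2, its relative, had 213, 214, 211 and 210.1 CPM in the GTEA7 libraries, 123, 121, 119 and 117 CPM in the GTEA1 libraries and 239, 235 and 233 CPM in the DMSO libraries. Here the order of the groups was reversed, again without overlap, and the change with GTEA1 was -0.98 ± 0.035 (adjusted p = 5.73e-30), a 1.97-fold fall. Per kilobase of exon EIF4EBP1 stood at 46.3 ± 2.03 CPM and EIF4EBP2 at 16.5 ± 0.361 CPM in GTEA1 cells, against 21.2 ± 0.644 and 32.5 ± 0.395 CPM in DMSO cells. By annotated exon length the order of the pair thus differed between these groups, while in CPM EIF4EBP2 was the higher in every group. EIF4ENIF1, which carries eIF4E into the nucleus and into messenger RNA decay, fell by 0.30 ± 0.064 (adjusted p = 5.05e-05). EIF4EBP3 had too few counts to test, and 73.4% of its exonic bases lie in the read-through gene ANKHD1-EIF4EBP3.

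The eIF5A family, whose modified form helps ribosomes through stretches that stall them, fell throughout with GTEA1. Of all tested genes 36.2% fell in this comparison. EIF5A had 95.9, 103, 96.4 and 95.6 CPM in the GTEA7 libraries, 69.4, 60.9, 62.5 and 57.6 CPM in the GTEA1 libraries and 85.5, 98.7 and 94.3 CPM in the DMSO libraries. Its GTEA1 libraries lay below all others, a change of -0.57 ± 0.05 (adjusted p = 2.95e-13) over DMSO. EIF5AL1, an EIF5A-like copy that may share reads with EIF5A, had 18.2, 17.5, 17.8 and 18.9 CPM in the GTEA7 libraries, 11.6, 10.1, 12.5 and 9.94 CPM in the GTEA1 libraries and 18, 14.4 and 17.1 CPM in the DMSO libraries, and fell by 0.57 ± 0.088 (adjusted p = 1.27e-07). EIF5A2, the paralog often raised in tumours, had 27.9, 28.0, 29.8 and 32.1 CPM in the GTEA7 libraries, 21.1, 22.1, 22.6 and 20.5 CPM in the GTEA1 libraries and 28.0, 28.2 and 28.0 CPM in the DMSO libraries. Its fall was smaller, 0.38 ± 0.064 (adjusted p = 7.2e-07), again without overlap between GTEA1 and DMSO. EIF6, which keeps large ribosomal subunits from joining too early, had 30.5, 34.4, 29.4 and 28.8 CPM in the GTEA7 libraries, 34.4, 33.1, 34.9 and 31.7 CPM in the GTEA1 libraries and 22.0, 27.4 and 27.6 CPM in the DMSO libraries. It rose by 0.38 ± 0.069 (adjusted p = 3.83e-06) with GTEA1, and the libraries of both extracts lay above those of DMSO. EIF5B, the GTPase of subunit joining, did not pass with GTEA1, with 267 ± 12.4 CPM against 273 ± 8.74 CPM in DMSO cells (adjusted p = 0.504). Scaled by totals only it was at -0.19 and passed as lower (adjusted p = 8.27e-06).

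The elongation factors rose with GTEA1 or did not pass, except that EEF1A2 fell when libraries were scaled by totals only. EEF1A1, the main carrier of aminoacyl-tRNA, had 11968, 12680.0, 12831 and 12302 CPM in the GTEA7 libraries, 22889, 23414, 24158 and 23466 CPM in the GTEA1 libraries and 11349, 11550.0 and 11875 CPM in the DMSO libraries. The GTEA1 libraries stood far above the others, a rise of 1.02 ± 0.04 (adjusted p = 2.95e-28) or 2.03-fold. Its pseudogenes held 5.78% of the counts of gene and copies together with GTEA7, 5.50% with GTEA1 and 5.25% with DMSO. EEF1A2, the form of muscle and nerve, had 248, 229, 237 and 234 CPM in the GTEA7 libraries, 247, 253, 245 and 253 CPM in the GTEA1 libraries and 247, 261 and 267 CPM in the DMSO libraries. It did not pass with GTEA1 (-0.051 ± 0.035, adjusted p = 0.189), though it did without DMSO replicate 1 (adjusted p = 0.0467) and scaled by totals only (-0.21, adjusted p = 1.09e-06). EEF1B2, the exchange factor that recharges eEF1A, had 438, 465, 463 and 434 CPM in the GTEA7 libraries, 615, 594, 636 and 606 CPM in the GTEA1 libraries and 409, 433 and 431 CPM in the DMSO libraries, and rose by 0.53 ± 0.035 (adjusted p = 7.64e-19). EEF1E1, a partner of the multi-tRNA synthetase complex, rose by 0.46 ± 0.094 (adjusted p = 2.7e-05). EEF1D, another exchange subunit, was at 0.09 ± 0.082 and did not pass (adjusted p = 0.322), or at -0.069 scaled by totals only. It was counted at only 15.1 ± 1.49 CPM in DMSO cells, and 34.0% of its exonic bases lie in other annotated genes. EEF1G, listed at 0 throughout, shares 99.9% of its exonic bases with another annotated gene. EEF2, which moves the ribosome along, had 2649, 2634, 2502 and 2591 CPM in the GTEA7 libraries, 3267, 3489, 3534 and 3324 CPM in the GTEA1 libraries and 2505, 2642 and 2636 CPM in the DMSO libraries. Its GTEA1 libraries lay above all others, a rise of 0.39 ± 0.037 (adjusted p = 1.41e-13). Smaller overlaps with other genes touch EEF1E1 (18.7% of exonic bases), EEF1B2 (17.4%), EIF6 (17.4%) and EIF2B1 (15.6%).

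Several of these elongation and initiation factors are known as 5′ TOP messenger RNAs, which begin with a C followed by pyrimidines and whose translation follows mTORC1. Of the 8 tested members known as such, 6 rose with GTEA1 and none fell, against the same background of 71.8% called and 35.6% risen. Their median change was 0.34. Scaled by totals only, EIF4B passed as lower with GTEA1 (-0.085, adjusted p = 0.0196), and EEF1D was at -0.069 and did not pass. The 8 were EEF1A1, EEF1B2, EEF1D, EEF2, EIF3E, EIF3F, EIF3H and EIF4B. Start windows of 50 bases, from 20 before to 30 after an annotated start, are given for 5 of them, with a pyrimidine run that begins with C in capitals. Where a gene had several annotated starts, the one with the longest run was taken, so the windows do not test whether a run is there. EEF1D, EIF3E and EIF3H had no promoter in the table used. The windows come from RefSeq on GRCh38.p14.
EEF1A1 (chr6:73521003-73521052, minus strand): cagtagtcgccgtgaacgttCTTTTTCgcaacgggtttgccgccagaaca
EEF1B2 (chr2:206159875-206159924, plus strand): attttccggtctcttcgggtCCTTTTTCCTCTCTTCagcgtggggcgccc
EEF2 (chr19:3985434-3985483, minus strand): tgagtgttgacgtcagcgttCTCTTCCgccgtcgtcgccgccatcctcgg
EIF4B (chr12:53006436-53006485, plus strand): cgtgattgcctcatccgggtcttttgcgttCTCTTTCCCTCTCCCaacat
EIF3F (chr11:7987317-7987366, plus strand): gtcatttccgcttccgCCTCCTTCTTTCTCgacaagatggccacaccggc
For comparison, the windows of the largest riser and of EIF4G1 and EIF4EBP2, which fell, also held pyrimidine runs near the annotated start. Counted from that start, the runs of EIF1 and EIF4EBP2 began at -7 and -9 and ended before it. That of EIF4B above began at 10.
EIF1 (chr17:41688865-41688914, plus strand): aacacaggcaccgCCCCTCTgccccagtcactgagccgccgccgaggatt
EIF4G1 (chr3:184315144-184315193, plus strand): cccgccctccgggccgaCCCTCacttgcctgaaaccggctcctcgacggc
EIF4EBP2 (chr10:70404125-70404174, plus strand): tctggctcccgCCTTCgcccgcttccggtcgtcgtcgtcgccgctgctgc
Runs of at least 5 pyrimidines beginning with C were sought up to 10 bases before or after any annotated start. One was found in 27 of the 50 members with a promoter in the table, 54%, against 36.38% of all 27305 genes there. A run counted in this way can end before the start, so it need not open the messenger RNA. Of the 6 members known as TOP messenger RNAs with a promoter, 5 held such a run, the exception being the untested EEF1G. With GTEA7 against DMSO 3 of the 8 rose, EEF1A1, EIF3E and EIF3H, and none fell. That is 37.5%, against 12% of all genes risen and 10.4% fallen. Scaled by totals only, EEF1A1 (adjusted p = 0.318) and EIF3H (adjusted p = 0.0674) no longer passed.

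With GTEA7 the rises were spread over most roles and reached 1.22-fold at most. The largest was EIF3J, a loosely bound eIF3 subunit, with 78.0, 79.4, 85.6 and 82.0 CPM in the GTEA7 libraries, 83.5, 79.1, 74.9 and 79.0 CPM in the GTEA1 libraries and 69.2, 64.5 and 66.5 CPM in the DMSO libraries. The GTEA7 libraries lay above all DMSO libraries, and the rise was 0.28 ± 0.044 (adjusted p = 1.78e-06). EIF6 rose by 0.27 ± 0.068 (adjusted p = 0.00294), a call lost without DMSO replicate 1 (adjusted p = 0.0903). EIF2S2 rose by 0.27 ± 0.038 (adjusted p = 3.64e-07), EIF3M by 0.26 ± 0.036 (adjusted p = 1.81e-07) and EIF2S1 by 0.25 ± 0.037 (adjusted p = 4.54e-07). The alpha and beta subunits of eIF2 were thus both among the larger rises. EIF4EBP1 rose by 0.25 ± 0.06 (adjusted p = 0.00114), EIF2A by 0.25 ± 0.035 (adjusted p = 2.63e-07) and EIF1 by 0.18 ± 0.035 (adjusted p = 0.000142). EIF5 rose by 0.21 ± 0.037, EIF5B by 0.21 ± 0.036, EIF1B by 0.20 ± 0.06 and EIF2D by 0.18 ± 0.046. EIF4E, which did not pass with GTEA1, rose with GTEA7 by 0.17 ± 0.039 (adjusted p = 0.00101), and EIF4G2 rose by 0.14 ± 0.034 (adjusted p = 0.00187). Of the 14 eIF3 genes 9 rose, or 5 scaled by totals only, and none fell, EIF3B included at 0.13 ± 0.035 (adjusted p = 0.00586). The 9 were 64.3%, against 12% of all genes risen and 10.4% fallen. Scaled by totals only, 1258 of all 17963 genes rose.

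Only EIF4EBP2 and EEF1A2 fell with GTEA7. EIF4EBP2 changed by -0.15 ± 0.033 (adjusted p = 0.00041), with no overlap between the groups. EEF1A2 changed by -0.13 ± 0.035 (adjusted p = 0.00612), and its GTEA7 and DMSO libraries overlapped. The fall of EEF1A2 was lost without DMSO replicate 3 (adjusted p = 0.0776), which left 1 fall.

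Some GTEA7 rises lay at the edge of the test. EEF1A1 rose by 0.10 ± 0.039 (adjusted p = 0.0495), and the call was lost when any single DMSO library, GTEA1 replicate 2 or GTEA7 replicate 2, 3 or 4 was left out (adjusted p from 0.0522 to 0.162). EEF1E1 rose by 0.25 ± 0.094 (adjusted p = 0.0481), lost without any single DMSO or GTEA7 library (adjusted p from 0.0566 to 0.185). EIF4E3 rose by 0.20 ± 0.069 (adjusted p = 0.0339), lost without DMSO replicate 2 or 3 or GTEA7 replicate 1 or 4 (adjusted p from 0.0806 to 0.166). The remaining calls that ended when a library was left out were EIF3L (0.10 ± 0.034, adjusted p = 0.0247, lost without DMSO replicate 1 or 3 or GTEA7 replicate 2), EIF2B1 (0.16 ± 0.051, adjusted p = 0.0136, lost without DMSO replicate 1 or 2) and EIF3B (lost without DMSO replicate 1, adjusted p = 0.101).

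Of the members that fell with GTEA1, EIF4G1, EIF4A3, EIF5A and EIF1AX did not pass with GTEA7. They were at 0.033 ± 0.034 for EIF4G1 (adjusted p = 0.54), or -0.018 scaled by totals only, 0.057 ± 0.036 for EIF4A3 (adjusted p = 0.267) and 0.073 ± 0.047 for EIF5A (adjusted p = 0.291). EIF1AX was at 0.10 ± 0.042 (adjusted p = 0.0769) and passed without DMSO replicate 1 (adjusted p = 0.0177), without GTEA1 replicate 1 (adjusted p = 0.0268) or without GTEA7 replicate 4 (adjusted p = 0.044). Others missed the threshold narrowly. EIF2S3 was at 0.086 ± 0.033 (adjusted p = 0.0508), and passed when any single GTEA1 library was left out (adjusted p from 0.0203 to 0.0434). EEF1B2 was at 0.085 ± 0.035 (adjusted p = 0.0759) and passed without GTEA1 replicate 1 (adjusted p = 0.0344) or GTEA7 replicate 4 (adjusted p = 0.0358). EIF4A1 was at 0.27 ± 0.11 (adjusted p = 0.0769) and passed without GTEA7 replicate 3 (adjusted p = 0.0326) or replicate 4 (adjusted p = 0.0397). EIF4A2 and EEF2 were far from it. EIF4A2 was at 0.032 ± 0.036 (adjusted p = 0.579), or -0.019 scaled by totals only. EEF2 did not pass, with 2594 ± 65.8 CPM with GTEA7 against 2594 ± 77.6 CPM with DMSO and a 95% interval of -0.072 to 0.071 on the log2 scale (adjusted p = 0.999).

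Whether the extracts differed was tested directly by setting GTEA7 against GTEA1. In GTEA7 cells 21 members were higher and 22 lower than in GTEA1 cells, 75.4% of the members against 72.7% of all genes. The background was 36.2% for higher and 36.4% for lower. Scaled by library totals only, which put the median of all genes at 0.11, 27 were higher and 16 lower. A change of at least 2-fold was passed by 1 higher and 1 lower member, EIF4E1B and EIF1, where 19.8% of all genes had one. The lower ones were led by EIF1 at -1.35 ± 0.032 (adjusted p = 1.16e-37), EIF2S2 at -0.97 ± 0.034 (adjusted p = 2.01e-30) and EEF1A1 at -0.92 ± 0.036 (adjusted p = 4.35e-28). EIF1B, EIF4EBP1 and EIF4A2 followed at -0.89 ± 0.051, -0.88 ± 0.05 and -0.85 ± 0.033. Among the higher ones, EIF4E1B was at 2.37 ± 0.45 on very few counts, EIF4EBP2 at 0.82 ± 0.033 (adjusted p = 6.33e-28) and EIF1AX at 0.74 ± 0.041 (adjusted p = 5.43e-20). EIF4G2, EIF5A, EIF4A3, EIF3B and EIF4G1 were also higher, at 0.66 ± 0.031, 0.65 ± 0.046, 0.60 ± 0.034, 0.56 ± 0.033 and 0.54 ± 0.032. EIF4E, EIF2S1 and EIF5B passed with GTEA7, and with GTEA1 passed only as lower under totals-only scaling. They did differ between the extracts, at 0.18 ± 0.036 (adjusted p = 2.75e-05), 0.21 ± 0.034 (adjusted p = 3.14e-07) and 0.24 ± 0.034 (adjusted p = 1.46e-08). EIF6, EIF3J and EIF2A did not pass in this comparison (adjusted p = 0.0842, 0.381 and 0.141). On the members' own levels, 87.1% of the variance lay along the first principal component, on which the 4 GTEA1 libraries stood apart from the other 7.

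Groups did not overlap in 28 members higher and 14 lower with GTEA1 than with DMSO, where 33.9% and 34.8% of all genes had such groups, 68.7% in all. With GTEA7 the numbers were 30 higher and 1 lower than with DMSO, where the background was 15.6% and 14.9%, or 30.5% in all. Between GTEA7 and GTEA1 they were 19 higher and 19 lower, where it was 32.8% and 32.5%, or 65.3% in all.

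The balance between paralogs can be read within each library, where library scaling cancels. The log2 ratio of EIF4EBP2 to EIF4EBP1 counts was 2.97 ± 0.034 with GTEA7, 1.27 ± 0.065 with GTEA1 and 3.37 ± 0.056 with DMSO (SD, n = 4, 4 and 3). It was the largest shift of the 8 pairs examined, -2.10 with GTEA1 and -0.41 with GTEA7 against DMSO. EEF1A2 over EEF1A1 stood at -5.72 with GTEA7, -6.56 with GTEA1 and -5.49 with DMSO. With GTEA1 against DMSO, EIF4A2 gained on EIF4A1 by 0.98, though the level of EIF4A1 is uncertain, as stated above. EIF4G3 gained on EIF4G1 by 0.89 and EIF4E3 on EIF4E by 0.34, while EIF1B against EIF1 changed by -0.43. In each of these the GTEA1 libraries lay wholly on one side of the DMSO libraries. Each has an exact two-sided permutation p of 0.0571, the smallest that 4 against 3 libraries allow, so no pair could pass against DMSO. Over 24 such tests none had an adjusted p under 0.05, and 7 had an unadjusted exact p under it, all between the extracts. There the smallest p that 4 against 4 libraries allow is 0.0286, which came to 0.0857 after adjustment. With these smallest p-values no outcome of the 24 tests could have given an adjusted p under 0.05, so that count decides nothing. The exact p was 0.114 for EIF5A2 over EIF5A and 0.286 for EIF4E2 over EIF4E, whose groups overlapped with GTEA1 against DMSO.

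**Figure D3:**
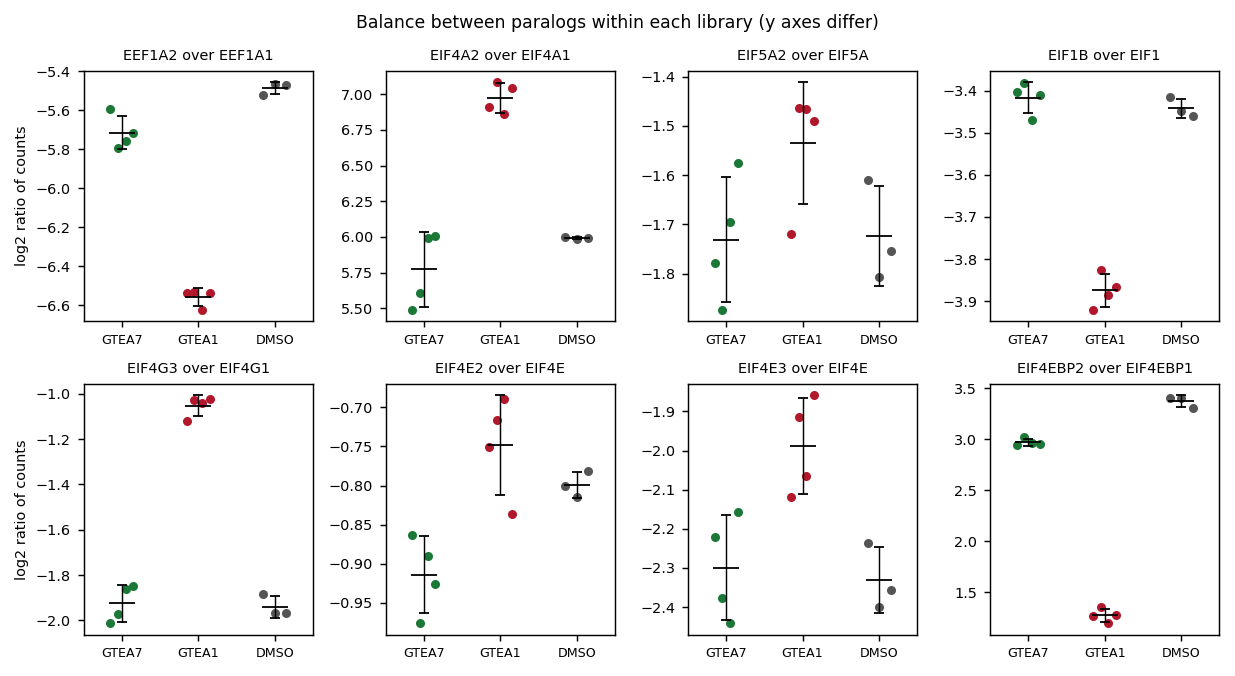
log2 ratio of the counts of 8 paralog pairs in each library, with group mean and SD; the y axes differ between panels and do not start at 0. EIF4EBP2 over EIF4EBP1 separates all 3 groups, with means of 2.97 in GTEA7, 1.27 in GTEA1 and 3.37 in DMSO libraries.

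Genes that regulate or assist the factors were read from lists by role. All 12 tested genes of the eIF2 kinases and their opposing phosphatase changed with GTEA1, 9 up and 3 down, against the background of 71.8%. Scaled by totals only the counts were 6 and 3. PPP1R15A, the stress-induced subunit that lets the phosphatase PP1 restore eIF2, rose by 2.41 ± 0.058 (adjusted p = 9.04e-26). It averaged 33.4 ± 1.45 CPM with GTEA7, 177 ± 16 CPM with GTEA1 and 33.3 ± 0.655 CPM with DMSO. Its constitutive relative PPP1R15B rose by 0.88 ± 0.039 (adjusted p = 5.41e-26), and EIF2AK3, the eIF2 kinase of endoplasmic reticulum stress, by 0.88 ± 0.062 (adjusted p = 8.14e-18). The 3 that fell were EIF2AK2, the kinase activated by double-stranded RNA (-0.54 ± 0.038, adjusted p = 8.91e-18), and the PP1 catalytic genes PPP1CA (-0.34 ± 0.045) and PPP1CC (-0.30 ± 0.033). With GTEA7, 7 rose and 2 fell, against 22.5% of all genes, or 2 and 2 scaled by totals only. Without DMSO replicate 1 or 2 the 7 became 4, and without DMSO replicate 3 they became 3. The 2 that fell, EIF2AK2 (-0.11 ± 0.037) and PPP1CA (-0.13 ± 0.043), became 0 without DMSO replicate 2 or GTEA7 replicate 4 and 1 without DMSO replicate 1 or 3 or GTEA7 replicate 2. EIF2AK3 rose by 0.26 ± 0.065 (adjusted p = 0.00174), while PPP1R15A and PPP1R15B did not pass (adjusted p = 0.954 and 0.915).

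**Figure D4:**
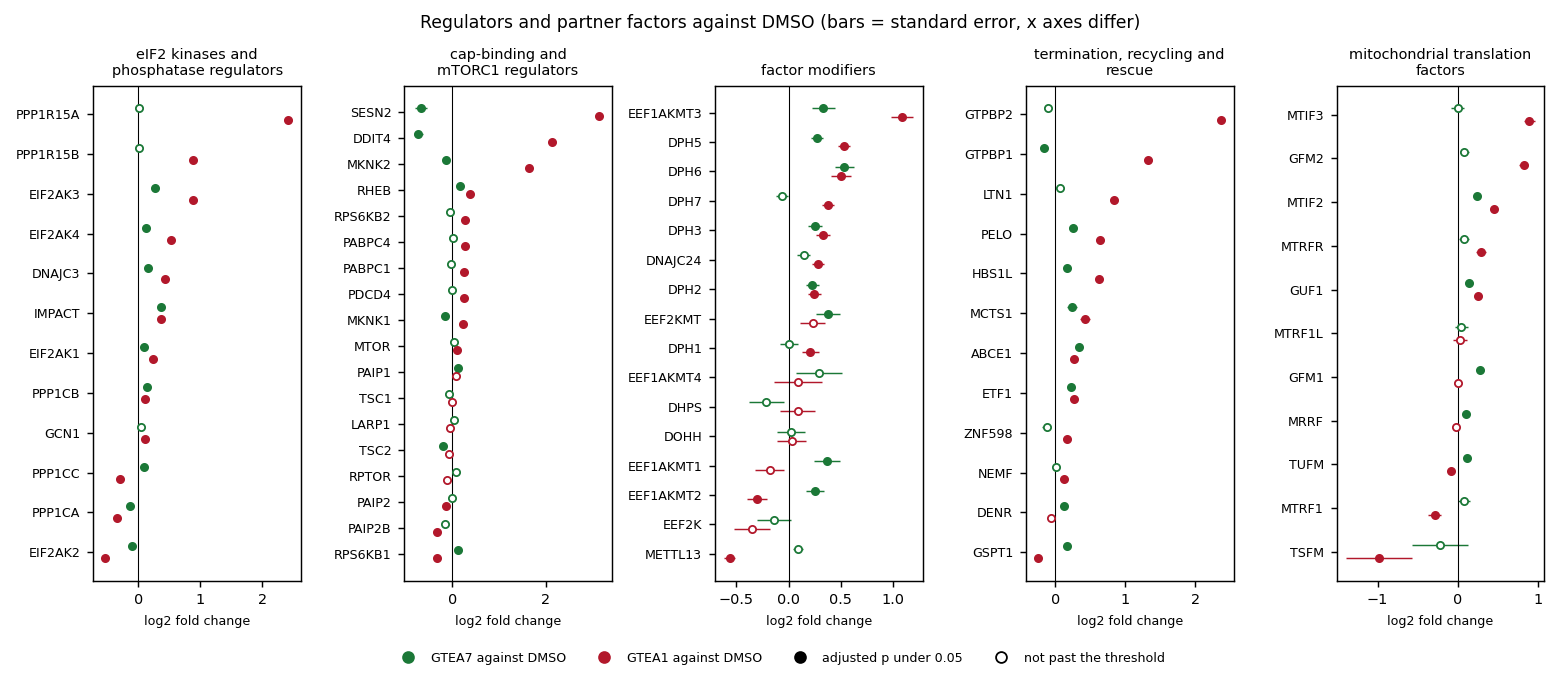
log2 fold change of the tested regulators and partner factors in GTEA7 (green) and GTEA1 (red) cells against DMSO cells, in 5 lists with differing x axes; bars are standard errors and filled points passed. PPP1R15A, SESN2, DDIT4 and GTPBP2 lie beyond 2 with GTEA1, while no GTEA7 point does.

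Of 18 regulators of cap binding and mTORC1, 10 rose and 3 fell with GTEA1, or 6 and 7 when scaled by totals only. That is 72.2% called, near the 71.8% of all genes. The most significant were MKNK2, a kinase of eIF4E, at 1.64 ± 0.039 (adjusted p = 1.22e-37), and the stress-induced mTORC1 inhibitors SESN2 at 3.13 ± 0.084 (adjusted p = 3.59e-35) and DDIT4 at 2.14 ± 0.076 (adjusted p = 4.4e-16). RPS6KB1, the S6 kinase downstream of mTORC1, fell by 0.33 ± 0.041 (adjusted p = 4.05e-10), as did PAIP2B (-0.32 ± 0.063) and PAIP2 (-0.14 ± 0.053), inhibitors of the poly(A)-binding protein. The call of PAIP2 was lost without DMSO replicate 2 (adjusted p = 0.104). With GTEA7, 3 rose and 5 fell, 44.4% called against 22.5% of all genes, or 0 and 7 scaled by totals only. The stress-induced pair went the other way than with GTEA1, SESN2 at -0.66 ± 0.13 (adjusted p = 0.000119) and DDIT4 at -0.73 ± 0.10 (adjusted p = 1.16e-05). The other 3 that fell were MKNK2 (-0.13 ± 0.04), MKNK1 (-0.16 ± 0.057) and TSC2 (-0.20 ± 0.047), and the 3 that rose were RHEB (0.16 ± 0.046), PAIP1 (0.13 ± 0.042) and RPS6KB1 (0.13 ± 0.039). The call of MKNK2 was also lost without DMSO replicate 2 (adjusted p = 0.0512), and that of MKNK1 without DMSO replicate 3 (adjusted p = 0.243) or GTEA7 replicate 4 (adjusted p = 0.0543). The 5 falls became 3 without DMSO replicate 1, GTEA7 replicate 1 or GTEA7 replicate 3, and the 3 rises became 1 without DMSO replicate 3.

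Of 12 tested genes of termination, recycling and rescue of stalled ribosomes, 10 rose and 1 fell with GTEA1, or 8 and 2 when scaled by totals only. That is 91.7% called, against 71.8% of all genes called and 35.6% risen. GTPBP2 and GTPBP1, GTPases that act on stalled ribosomes, rose by 2.37 ± 0.043 (adjusted p = 8.54e-43) and 1.33 ± 0.055 (adjusted p = 1.49e-22). HBS1L, which helps split stalled ribosomes, rose by 0.62 ± 0.038 (adjusted p = 3.91e-20), and LTN1, the ligase that marks their unfinished chains, by 0.84 ± 0.053 (adjusted p = 7.86e-20). GSPT1, the release factor eRF3a, fell by 0.25 ± 0.035 (adjusted p = 8.02e-09). With GTEA7, 7 rose and 1 fell, 66.7% called against 22.5% of all genes, or 6 and 3 scaled by totals only. HBS1L and GSPT1 were among those that rose, by 0.16 ± 0.038 (adjusted p = 0.0012) and 0.16 ± 0.034 (adjusted p = 0.000211). The fall was that of GTPBP1, at -0.16 ± 0.06 (adjusted p = 0.0474), and it was lost without any single DMSO library, GTEA1 replicate 2 or GTEA7 replicate 2, 3 or 4 (adjusted p from 0.0564 to 0.177).

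Of 16 enzymes that modify the factors, 8 rose and 2 fell with GTEA1, or 5 and 4 when scaled by totals only. That is 62.5% called, below the 71.8% of all genes. EEF1AKMT3 and METTL13 both methylate eEF1A, and changed by 1.09 ± 0.11 (adjusted p = 6.03e-13) and -0.56 ± 0.053 (adjusted p = 2.19e-13). DPH5 and DPH7, which help make the diphthamide of eEF2, rose by 0.53 ± 0.057 (adjusted p = 7.48e-12) and 0.37 ± 0.056 (adjusted p = 6.31e-08). The second fall was EEF1AKMT2 (-0.30 ± 0.10, adjusted p = 0.00584), lost without DMSO replicate 1 (adjusted p = 0.077). With GTEA7 8 rose and none fell, 50% called against 22.5% of all genes, and the 8 became 5 with totals-only scaling and without DMSO replicate 2 or 3.

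Of 11 mitochondrial translation factors 5 rose and 3 fell with GTEA1, 72.7% called against 71.8% of all genes. With totals-only scaling 4 rose and 5 fell. Those that rose were MTIF3 (0.90 ± 0.071, adjusted p = 3.63e-16), GFM2 (0.83 ± 0.053, adjusted p = 1.52e-19), MTIF2 (0.45 ± 0.045), MTRFR (0.30 ± 0.062) and GUF1 (0.25 ± 0.048), the last of which did not pass with totals-only scaling. Those that fell were TSFM (-0.98 ± 0.41, adjusted p = 0.0308), MTRF1 (-0.29 ± 0.081) and TUFM (-0.082 ± 0.037). TSFM, the exchange factor of mitochondrial elongation, averaged 0.568 ± 0.106 CPM with GTEA7, 0.324 ± 0.133 CPM with GTEA1 and 0.664 ± 0.222 CPM with DMSO. The 3 falls became 1 without DMSO replicate 2 or 3, where TSFM and TUFM lost their calls. The call of TSFM was also lost without GTEA1 replicate 1 (adjusted p = 0.052) or 2 (adjusted p = 0.107), and that of TUFM without GTEA1 replicate 4 (adjusted p = 0.2) or GTEA7 replicate 2 (adjusted p = 0.05, just above the threshold). With GTEA7 5 rose, namely GFM1, MTIF2, GUF1, TUFM and MRRF, and none fell, 45.5% called against 22.5% of all genes. These 5 became 2 with totals-only scaling, and 3 without DMSO replicate 1 or 2 or GTEA7 replicate 1 or 2.

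Promoters of the members were searched for the letters of known regulatory motifs, on both strands, from 250 bases before to 50 after each annotated start. Of the 60 members 50 had a promoter in the RefSeq table of GRCh38.p14. The composite element TGATGNAA, bound by ATF4 with a C/EBP partner, was found in 1 of them, EIF4E3, against 4.46% of all genes in the table. The E-box CACGTG was found in 11 members, 22%, against 8.77% of all genes in the table, and reads the same on both strands. A gene counted as having a motif if any of its annotated starts had it, so genes with more starts had more chances to match. The table held 35116 promoters for 27305 genes, and the number of starts of members and other genes was not compared. The genes of the table were not limited to those tested, nor were they for the pyrimidine runs above. Members with an E-box included EIF1B, EIF3F and EIF3K, which rose with GTEA1, and EIF4G1, EIF4H, EIF5A2 and EIF4A3, which fell. The promoters of EIF1, the largest riser, of its paralog EIF1B and of EIF4G1 are shown from 250 bases before to 30 after an annotated start, with each E-box in capitals. Where a gene had several annotated starts, the one with the most matches to these motifs was taken. The promoter of EIF4G1 shown belongs to another annotated start than its window above.
EIF1 (chr17:41688635-41688914, plus strand): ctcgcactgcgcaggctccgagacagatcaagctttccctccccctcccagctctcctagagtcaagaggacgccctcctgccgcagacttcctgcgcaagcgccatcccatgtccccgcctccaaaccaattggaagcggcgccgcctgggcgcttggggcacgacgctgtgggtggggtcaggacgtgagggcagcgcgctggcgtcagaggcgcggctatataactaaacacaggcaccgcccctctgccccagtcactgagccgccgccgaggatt
EIF1B (chr3:40309457-40309736, plus strand): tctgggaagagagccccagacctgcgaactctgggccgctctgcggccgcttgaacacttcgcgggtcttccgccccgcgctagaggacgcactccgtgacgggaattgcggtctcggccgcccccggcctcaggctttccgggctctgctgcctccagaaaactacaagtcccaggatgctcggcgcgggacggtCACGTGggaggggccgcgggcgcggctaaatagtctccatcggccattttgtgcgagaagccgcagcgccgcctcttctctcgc
EIF4G1 (chr3:184314356-184314635, plus strand): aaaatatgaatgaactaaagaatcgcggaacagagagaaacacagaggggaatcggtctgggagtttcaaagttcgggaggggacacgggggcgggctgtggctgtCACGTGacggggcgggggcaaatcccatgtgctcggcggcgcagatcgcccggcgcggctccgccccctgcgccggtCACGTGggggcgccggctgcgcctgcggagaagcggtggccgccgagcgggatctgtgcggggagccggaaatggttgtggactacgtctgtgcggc
The sequence of EIF1 held neither of these motifs, EIF1B held 1 E-box and EIF4G1 held 2. A match says only that the letters are there.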

How the data were processed

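Poly(A) RNA of HCT116 cells was sequenced from 11 libraries (4 with GTEA7, 4 with GTEA1, 3 with DMSO), grouped by the labels. The authors deposited whole-number read counts per gene, with no normalization. Tools listed in the submitters' processing notes, with no role stated, were HTSeq 0.5.4, DESeq 1.10.1, STAR, SAMtools 0.1.18, GATK and Picard. Genome build, annotation and strandedness of the counting were not given in the sources used here. Counts on the wrong gene where exons overlap, and reads shared by near-identical copies, can therefore affect the values.

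The table held 61464 rows, of which 840 named no Ensembl gene. Those held 0.727% of the counts and stayed in the fitted table. They therefore count in the library totals and may be among the 17963 genes tested. Ensembl IDs were matched to symbols for 60370 rows. Exon lengths and overlaps came from GENCODE v29, and promoters from RefSeq. Every column matched 1 sample.

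Counts were fitted in edgeR 4.0.16 under R 4.3.3, with TMM factors, edgeR's filter on low counts by group, and the robust quasi-likelihood test over all 11 libraries, with no covariate. Standard errors are the log2 fold change over the square root of F. Benjamini-Hochberg adjustment ran over all 17963 tested genes at a threshold of 0.05, and p-values are two-sided. The script was tested on simulated counts. Paralog count ratios were compared by exact permutation. Alternatives were DESeq2 1.42.0 (size factors and Wald test), limma 3.58.1 (voom), no scaling factors, no filter, a filter of 1 CPM in 3 libraries, a replicate block, fits of the 2 groups compared only, and leaving out each library.

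The members and lists were chosen with earlier results of these data known. Any member may be named. Values of each library are given for the 8 largest rises and 8 largest falls with GTEA1 and for up to 4 each way with GTEA7, beside a few core factors. Of each list of regulators and partner factors the 4 genes of smallest adjusted p with GTEA1 are named, and all where 5 or fewer moved in a direction.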

Additional observations from a re-analysis of the deposited data

Results flagged for a closer look

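In 7 of the 112 sets of 4 libraries examined, 1 library stood further from its neighbours than Dixon's criterion allows. Chance alone gives about 1 such library in 20 sets. With GTEA1, EIF2S1 had 172 CPM in replicate 1, the highest, against 162 CPM in the nearest library. EIF2B3, which encodes the gamma subunit of eIF2B, had 15.2 CPM in GTEA1 replicate 3, the highest, against 13.6 CPM in the nearest. EIF3A had 965 CPM in GTEA1 replicate 1, the lowest, against 1020.0 CPM in the nearest. With GTEA7, EIF3G had 80.1 CPM in replicate 2, the highest, against 74.0 CPM in the nearest. EIF3M had 179 CPM in GTEA7 replicate 1, the lowest, against 191 CPM in the nearest. EIF5A had 103 CPM in GTEA7 replicate 2, the highest, against 96.4 CPM in the nearest, and EIF5 had 338 CPM in GTEA7 replicate 3, the highest, against 321 CPM in the nearest.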

How the results depend on the processing

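Of 129 member changes recomputed under alternatives, 85 kept direction and side of the threshold under all of those run. Over 2447 alternative values 2294 did so, 89 lost and 35 gained a call, and 29 turned sign. The setting that moved most was scaling by library totals only. With it the GTEA1 falls against DMSO numbered 24, and the GTEA7 calls against DMSO 17, of which 15 were rises. It also moved all genes, to 4836 higher and 8173 lower for GTEA1 against DMSO, 1258 and 2949 for GTEA7 against DMSO, and 7651 and 5459 for GTEA7 against GTEA1, where the reported scaling gave 6390 and 6505, 2159 and 1877, and 6510 and 6546. The log2 changes it turned were, for GTEA1 against DMSO, EIF4B -0.085, EEF1D -0.069, EIF2S1 -0.12, EIF2S3 -0.15, EIF2B5 -0.092, EIF3G -0.026, EIF3K -0.028 and EIF5 -0.030. For GTEA7 against DMSO they were EIF4A2 -0.019 and EIF4G1 -0.018, and for GTEA7 against GTEA1 EEF1A2 0.033, EIF3E 0.010 and EIF3G 0.0041. The cause was not tested. EEF2 with GTEA7 against DMSO, which did not pass, was at 0.0089 with DESeq2 size factors and with its Wald test, 0.015 with no filter, 0.0064 with the replicate block, 0.0013 with 2 groups only and 0.00030 with voom. Leaving out 1 library gave -0.025 to 0.021 for it, -0.024 to 0.0066 for EIF4E and -0.051 to 0.0024 for EIF5B (both GTEA1 against DMSO), and 1 to 2 GTEA7 falls against DMSO. For GTEA7 against DMSO it gave paralog ratio shifts of -0.059 to 0.050 for EIF5A2 over EIF5A, -0.0081 to 0.047 for EIF4G3 over EIF4G1 and -0.016 to 0.080 for EIF4E3 over EIF4E. Replicates with the same number did not deviate together (correlations -0.055 to 0.0262). With the replicate block 27 members rose and 13 fell with GTEA1 against DMSO, 25 and 2 with GTEA7 against DMSO, and 21 and 22 between the extracts. Changes of partner genes and counts within lists were added as alternatives after the data were seen: of 1023 gene values 938 kept their call, and of 1938 list counts 1838 stayed within 1.5 times the reported one. Of the tested members whose values are given, depth limits EIF4E1B most.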
